A study of Danio rerio with 12 samples.

Results

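The genes described here are 9 transcripts of fast skeletal muscle, chosen by Ensembl identifier from a table of 32271 zebrafish features. They encode 2 muscle creatine kinases (*ckma*, ENSDARG00000035327, and *ckmb*, ENSDARG00000040565), 2 actins (*actc1b*, ENSDARG00000099197, and *acta1b*, ENSDARG00000055618) and the myosin regulatory light chain *mylpfa* (ENSDARG00000053254). The others are the tropomyosin *tpma* (ENSDARG00000033683), the fast troponin T *tnnt3a* (ENSDARG00000030270) and 2 parvalbumins (*pvalb1*, ENSDARG00000037789, and *pvalb2*, ENSDARG00000002768). All 9 had a mean of at least 0.5 FPKM and entered the tests, as did 21623 features in all. Larvae were 3 weeks old and were WT, homozygous for *mda5*mk29 (a short deletion in *mda5*, named *ifih1* in the sample labels), homozygous for *zbtb24*mk22 (a deletion of several *zbtb24* exons), or homozygous for both; the last group is called the double mutant. Each genotype had 3 libraries, and each library was polyadenylated RNA from a pool of 10 animals. The design text gives whole larvae as the source, whereas the sample labels give fin, and the design text was followed. No agent was given. The study described *zbtb24* mutants as smaller than their siblings at about this age, so the comparison asks whether transcripts of the fast fibres differ by genotype. Body size is not among the values analysed here, and its part in any result was not tested.

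Fast fibres make up most of the trunk muscle of a fish and power burst swimming. In each sarcomere, actin thin filaments slide along myosin thick filaments; tropomyosin lies along the actin and, with troponin, lets myosin bind only when calcium is released from the sarcoplasmic reticulum. Parvalbumins are soluble proteins that take up calcium and speed relaxation, and they are very abundant in fish muscle. Muscle creatine kinase regenerates ATP from phosphocreatine. Mda5 is a cytosolic helicase that recognises long double-stranded RNA, and *ZBTB24* encodes a zinc finger protein whose loss causes a form of ICF syndrome in people.

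Values are FPKM (fragments per kilobase of transcript, relative to the mapped fragments), scaled between libraries by the authors, so levels can be set side by side between genes per unit of length. The depth of each library is unknown, and the only error available is the spread between libraries. Summed FPKM ran from 5811530 to 12214500 per library, and 4 features took between 84.2% and 89.93% of it. The 9 genes held between 4.366% and 9.952% of what remained without those 4 features. The genotype labels were checked on named genes. *CDCA7* was between 2.53 and 3.48 FPKM in the 6 libraries with intact *zbtb24* and between 0.0118 and 0.101 FPKM in the 6 *zbtb24* mutant and double mutant libraries. The transcript of *ZBTB24* itself ran from 0.348 to 0.587 FPKM in the first 6 and from 1.06 to 1.74 FPKM in the other 6. It was therefore higher, not lower, where the gene is labelled mutant. A value per gene does not separate deleted from remaining exons. These values differ from the paper's qRT-PCR in younger larvae, which detected no *zbtb24* transcript in homozygotes for this deletion. *IFIH1* was between 0.732 and 0.82 FPKM in WT and between 0.354 and 0.613 FPKM in the 6 libraries labelled *mda5* mutant, but between 1.35 and 1.87 FPKM in *zbtb24* single mutants. Genotype names below are those of the labels.

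Of the 9 genes, 6 were among the most abundant transcripts of every library. Ranked among all features, *pvalb2* stood at rank 7 to 9, *pvalb1* at 8 to 14, *mylpfa* at 12 to 19, *tpma* at 16 to 23, *ckmb* at 27 to 39 and *ckma* at 28 to 46. *acta1b* stood between rank 162 and rank 3757 and *tnnt3a* between 1025 and 1950. *actc1b* stood at rank 10 at its highest and was listed at 0 in 9 of 12 libraries. In the deposited values, genotype means of 6 genes (*ckma*, *ckmb*, *mylpfa*, *tpma*, *pvalb1* and *pvalb2*) were lower in both single mutants than in WT and double mutants. So were those of *tnnt3a*, although its genotypes all overlapped. For *ckma* the *zbtb24* mutant mean was 96.9% of that in WT, nearer to WT than the double mutant mean, at 110%. This order depended on the scaling between libraries, as described below. *acta1b* did not follow this order and was low in both groups without Zbtb24. In RNA from pools of whole animals, fewer muscle fibres and less of a transcript per fibre cannot be told apart.

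**Figure D1:**
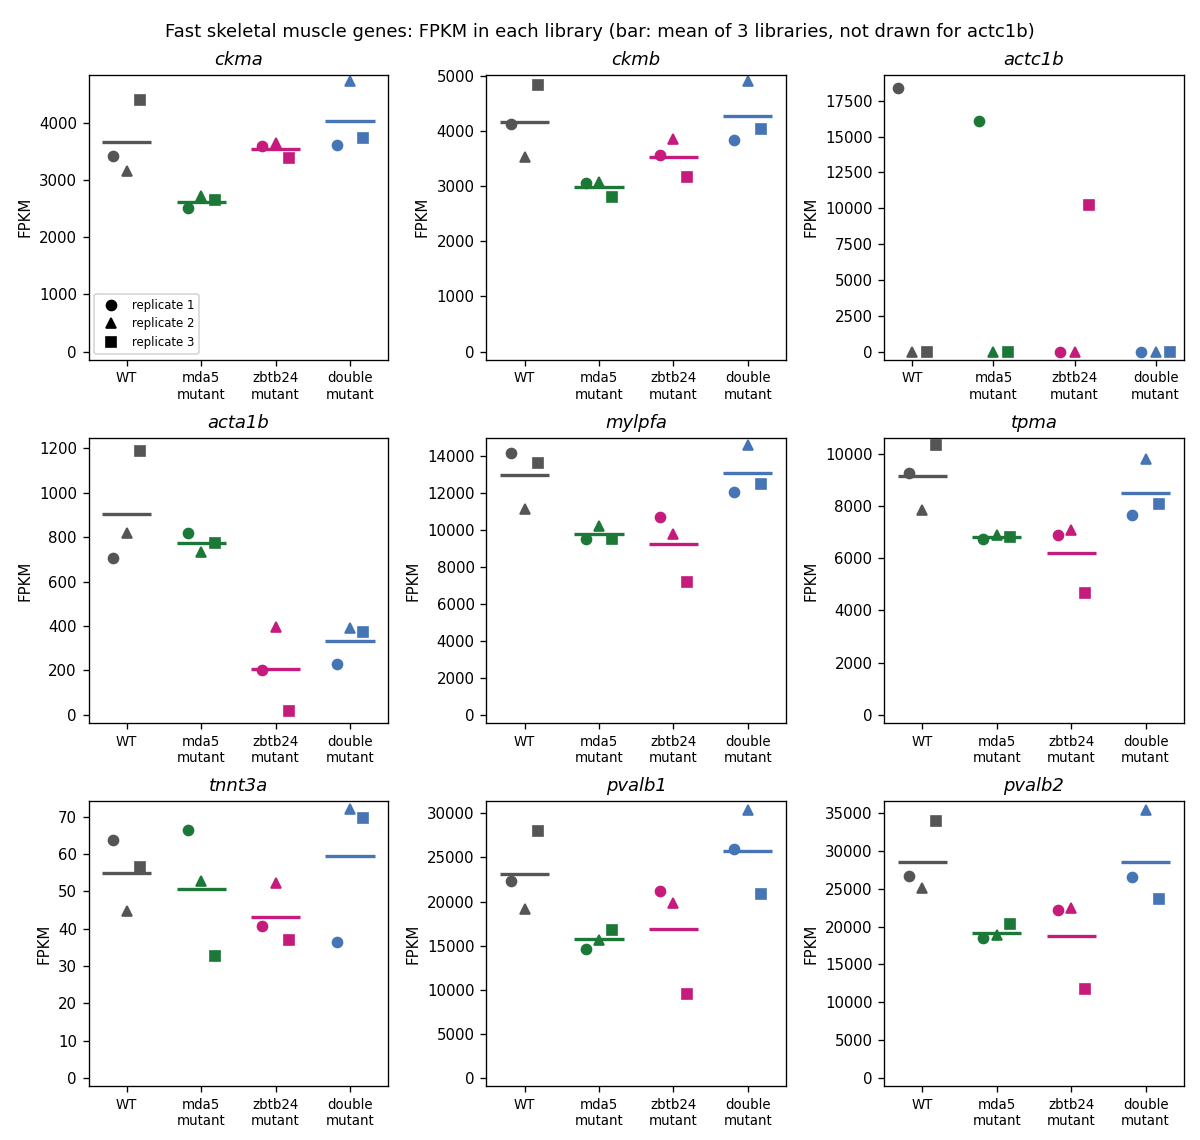
FPKM (vertical axes, linear, each with its own scale) of the 9 fast skeletal muscle genes in the 12 libraries, by genotype; marker shape gives the replicate number and bars give the mean of 3 libraries, not drawn for *actc1b*. *acta1b* is at or below 396.9 FPKM in all 6 libraries without Zbtb24 and at or above 706.1 FPKM in the other 6, and *actc1b* is listed at 0 in 9 of 12 libraries.

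In the deposited values, creatine kinase transcripts were lowest in *mda5* mutants. *ckma* was at 3427, 3151 and 4397 FPKM in WT, at 2504, 2717 and 2641 FPKM in *mda5* mutants, at 3599, 3652 and 3381 FPKM in *zbtb24* mutants, and at 3615, 4727 and 3742 FPKM in double mutants. All 3 *mda5* mutant libraries lay below all 9 others, and the *zbtb24* mutant values lay inside the WT range. Genotype means were 3658 ± 654.1 FPKM in WT, 2621 ± 107.9 FPKM in *mda5* mutants, 3544 ± 143.8 FPKM in *zbtb24* mutants and 4028 ± 608.6 FPKM in double mutants (SD, n = 3 each). *ckmb* was at 4127, 3532 and 4832 FPKM in WT, at 3067, 3075 and 2811 FPKM in *mda5* mutants, at 3565, 3865 and 3168 FPKM in *zbtb24* mutants, and at 3843, 4920 and 4043 FPKM in double mutants. Again the *mda5* mutant libraries lay below the other 9, while *zbtb24* mutants overlapped with both WT and double mutants. The share of all features that set these libraries apart from the other 9 was not counted. After rescaling without the 4 most abundant features and the 9 genes, *mda5* mutants stood above WT. The log2 change was then 0.0795 for *ckma* and 0.0768 for *ckmb*, beside a median of 0.45 over all features. The sum used for that rescaling takes in 1 feature listed at 595886 FPKM in WT replicate 2 alone. Under the other scalings the change stayed below 0 for both genes. The mean of *ckmb* in *mda5* mutants was 71.7% of that in WT; it stood at 84.9% in *zbtb24* mutants and at 103% in double mutants. These genes are paralogs, and how the counting divided fragments that match both is not given in the sources used here.

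The actins could be followed only in part. *acta1b* (named *ACTA1* in the gene table), a skeletal alpha-actin, was at 706.1, 818.6 and 1189 FPKM in WT, at 818, 731.6 and 773.5 FPKM in *mda5* mutants, at 201.2, 396.9 and 17.2 FPKM in *zbtb24* mutants, and at 230.4, 390.8 and 370.6 FPKM in double mutants. The 6 libraries without Zbtb24 lay below the 6 others, with no overlap, and *zbtb24* mutant replicate 3 was far below every other library. The share of all features that separate these libraries in this way was not counted. The means were 904.5 ± 252.5 FPKM in WT, 774.4 ± 43.22 FPKM in *mda5* mutants, 205.1 ± 189.9 FPKM in *zbtb24* mutants and 330.6 ± 87.39 FPKM in double mutants (SD, n = 3 each). *actc1b*, an alpha-actin gene that zebrafish express in skeletal muscle, was listed at 18394.5 FPKM in WT replicate 1, 16055.3 FPKM in *mda5* mutant replicate 1 and 10241.4 FPKM in *zbtb24* mutant replicate 3, and at 0 in the other 9 libraries. An exact 0 for so abundant a transcript can be a failed estimate: of 28 features that exceeded 10000 FPKM in some library, 10 were listed at 0 in at least 1 library. No mean, fold change or direction is given for *actc1b*. Alpha-actin genes are nearly identical in sequence, so fragments may be shared between them, and *acta1b* values are uncertain for that reason. In the library where *acta1b* was lowest, *actc1b* was listed above 0; in the other 2 such libraries *acta1b* was at 706.1 and 818 FPKM.

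*mylpfa* (named *MYL11* in the gene table), the regulatory light chain that sits on the neck of fast myosin, was at 14155, 11161 and 13608 FPKM in WT. It was at 9541, 10248 and 9499 FPKM in *mda5* mutants, at 10721, 9776 and 7204 FPKM in *zbtb24* mutants, and at 12087, 14618 and 12509 FPKM in double mutants. In the deposited values each single mutant lay wholly below WT and wholly below double mutants. Of all features, 18.5% lay wholly below WT in *zbtb24* mutants and 12.6% did so in *mda5* mutants. Double mutants lay wholly above *mda5* mutants for 12% of features and wholly above *zbtb24* mutants for 11.7%. The position against WT depended on the scaling, as described below. *tpma*, the thin filament tropomyosin, was at 9279, 7855 and 10327 FPKM in WT, at 6744, 6900 and 6811 FPKM in *mda5* mutants, at 6873, 7063 and 4668 FPKM in *zbtb24* mutants, and at 7638, 9819 and 8077 FPKM in double mutants. The separation was the same as for *mylpfa*: WT and double mutants overlapped, and both single mutants lay below them. As a percentage of the WT mean, *tpma* stood at 74.5% in *mda5* mutants, at 67.8% in *zbtb24* mutants and at 93% in double mutants.

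*tnnt3a* was the least abundant of the genes and showed no separation of genotypes. It was at 63.7, 44.9 and 56.5 FPKM in WT, at 66.5, 52.8 and 32.8 FPKM in *mda5* mutants, at 40.8, 52.1 and 36.8 FPKM in *zbtb24* mutants, and at 36.4, 72.2 and 69.6 FPKM in double mutants. Each genotype overlapped every other. The gene table gives the symbol *TNNT3* to this identifier and to ENSDARG00000068457, which was far more abundant, at between 1712 and 5163 FPKM. That second *TNNT3* feature had a log2 change of -0.77 ± 0.23 (SE) in *zbtb24* mutants against WT, with an adjusted p of 0.0567 in limma, and its lowest value was in *zbtb24* mutant replicate 3.

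The parvalbumins were the most abundant of the 8 genes other than *actc1b*. *pvalb1* was at 22285, 19146 and 28055 FPKM in WT, at 14666, 15691 and 16800 FPKM in *mda5* mutants, at 21240, 19836 and 9493 FPKM in *zbtb24* mutants, and at 25988, 30343 and 20872 FPKM in double mutants. *mda5* mutants lay below WT and below double mutants, whereas in *zbtb24* mutants only replicate 3 lay below all WT libraries. *pvalb2* was at 26729, 25082 and 33924 FPKM in WT, at 18497, 18827 and 20284 FPKM in *mda5* mutants, at 22185, 22486 and 11688 FPKM in *zbtb24* mutants, and at 26494, 35377 and 23688 FPKM in double mutants. In the deposited values both single mutants lay below every WT and every double mutant library. The shares of all features that separate in these ways are those given above for *mylpfa*. *pvalb2* means were 28580 ± 4702 FPKM in WT, 19200 ± 950.9 FPKM in *mda5* mutants, 18790 ± 6149 FPKM in *zbtb24* mutants and 28520 ± 6102 FPKM in double mutants (SD, n = 3 each).

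Loss of Zbtb24 alone was tested with limma on log2(FPKM + 0.5), a scale that understates changes of low genes. None of the 9 genes passed an adjusted p of 0.05 in *zbtb24* mutants against WT, where 11.6% of all features passed in either direction and 6.65% passed as lower. At an unadjusted p under 0.05, 4 of 9 genes (*acta1b*, *tpma*, *mylpfa* and *pvalb2*) were lower, against 16.6% of all features, and the same 4 had no overlap between genotypes, against 18.5% of all features. *acta1b* had the lowest log2 change, -2.97 ± 0.87 (SE), with an adjusted p of 0.0501, and was lower in 3 of 3 libraries. The log2 change was -0.58 ± 0.18 for *tpma* (adjusted p = 0.0649), -0.50 ± 0.17 for *mylpfa* (adjusted p = 0.078) and -0.65 ± 0.26 for *pvalb2* (adjusted p = 0.116). *pvalb1* at -0.53, *tnnt3a* at -0.34 and *ckmb* at -0.23 had 95% confidence intervals that include 0, as did *ckma*, at -0.03 (from -0.37 to 0.31). The median of the 8 genes other than *actc1b* was -0.52, beside -0.0044 over all features. *zbtb24* mutant replicate 3 was the lowest of its group for all 8 of these genes, and it carried the lowest value of all 12 libraries for *acta1b*, *mylpfa*, *tpma*, *pvalb1* and *pvalb2*. Without it, *acta1b* had a log2 change of -1.64 and an adjusted p of 0.0298, while *pvalb1* stood at -0.16 and *pvalb2* at -0.34. Over all settings tried, the adjusted p of *acta1b* ran from 0.0298 to 0.17, so it lay on both sides of the threshold.

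**Figure D2:**
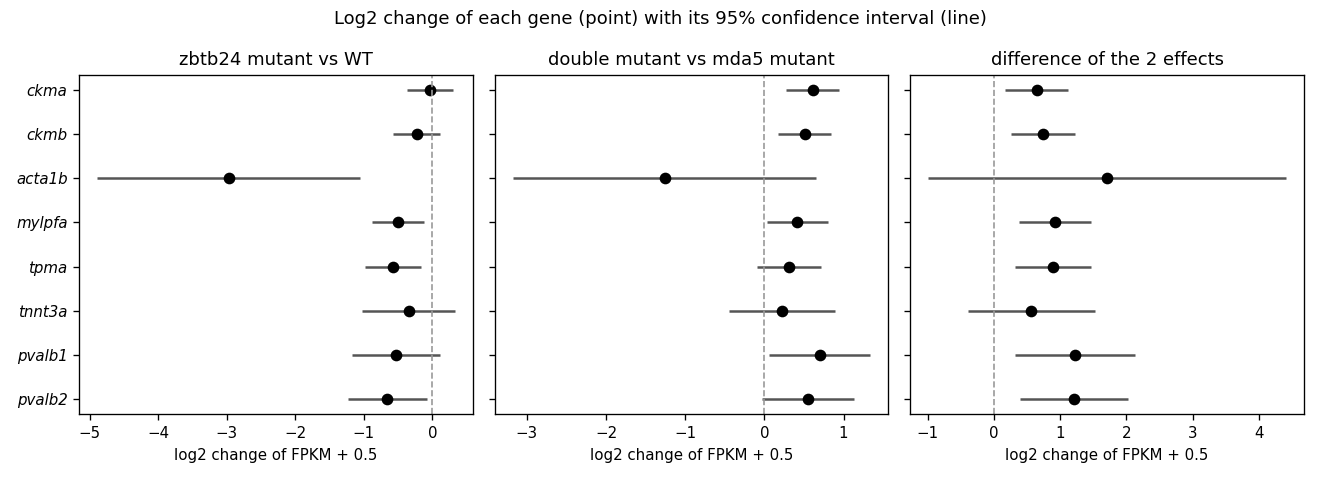
Log2 change of FPKM + 0.5 (horizontal axes, points) with 95% confidence intervals (lines) for 8 genes, for *zbtb24* mutants against WT, for double mutants against *mda5* mutants, and for the difference between these effects. 7 of the 8 points change sides between the first and the second panel; *acta1b* stays below 0 in both, at -2.97 and -1.26.

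In larvae without Mda5, the same loss of Zbtb24 gave values on the other side of 0 for 7 of the 8 genes. None of the 9 passed an adjusted p of 0.05 in double mutants against *mda5* mutants, where 0.134% of all features did; at an unadjusted p under 0.05, 4 of 9 (*ckma*, *ckmb*, *pvalb1* and *mylpfa*) were higher, against 7.18% of all features. *ckma* had a log2 change of 0.61 ± 0.15 (SE; adjusted p = 0.192), *ckmb* of 0.51 ± 0.15 (adjusted p = 0.271), *pvalb1* of 0.70 ± 0.29 (adjusted p = 0.386) and *mylpfa* of 0.42 ± 0.17 (adjusted p = 0.385). All 3 double mutant libraries lay above all 3 *mda5* mutant libraries for 6 of the 9 genes, namely these 4, *tpma* and *pvalb2*, against 12% of all features. *acta1b* was the exception. Its log2 change was -1.26 ± 0.87, with an adjusted p of 0.57 and no overlap between the groups, which 9.15% of all features showed in that direction.

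In the deposited values all 8 genes other than *actc1b* had a log2 change below 0 with loss of Mda5 alone. After rescaling without the 4 most abundant features and the 9 genes, 7 of the 8 genes stood above 0. Their median was then 0.10, beside 0.45 over all features. That sum takes in 1 feature listed at 595886 FPKM in WT replicate 2 alone. After rescaling over features never listed at 0, 6 of the 8 stood below 0, with a median of -0.095 beside 0.28. Quantile normalization also left 6 below 0, with a median of -0.037 beside -0.0074. None of the 9 passed an adjusted p of 0.05 in *mda5* mutants against WT, where 0.00462% of features (1 feature) did, and 4 of 9 (*ckma*, *ckmb*, *mylpfa* and *tpma*) were lower at an unadjusted p under 0.05, against 7.27% of all features. The *mda5* mutant libraries lay wholly below WT for 6 of 9 genes (*ckma*, *ckmb*, *mylpfa*, *tpma*, *pvalb1* and *pvalb2*), against 12.6% of all features. Log2 changes of these 6 ran from -0.56 for *pvalb2* to -0.40 for *mylpfa*, and *acta1b* stood at -0.19 and *tnnt3a* at -0.16. Some other abundant transcripts were also low in these libraries: the liver markers summed to between 1670 and 2542 FPKM in *mda5* mutants and between 2821 and 4378 FPKM in WT, and the skin markers to between 4493 and 5979 FPKM and between 5953 and 8039 FPKM, which overlap. The heart markers, which are less abundant, had a median log2 change of -0.15. Both neuron markers, also less abundant, went the other way, with a median of 0.42. The part of these differences in the muscle values was not tested.

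Loss of Mda5 in *zbtb24* mutants was compared next. None of the 9 genes passed in double mutants against *zbtb24* mutants, where 0.00462% of features did, and 4 of 9 (*mylpfa*, *tpma*, *pvalb1* and *pvalb2*) were higher at an unadjusted p under 0.05, against 7.74% of all features. All 8 genes with a log2 change had one above 0, with a median of 0.49 beside 0.019 over all features. *mylpfa*, *tpma* and *pvalb2* were higher in every double mutant library than in every *zbtb24* mutant library, which 11.7% of features were. For *acta1b* the log2 change was 1.52 ± 0.87 (SE; adjusted p = 0.41), and it was 0.19 without *zbtb24* mutant replicate 3, so that library decided it. Against WT, 0 of 9 genes passed in double mutants, 0 of 9 had an unadjusted p under 0.05, and 0.402% and 11.6% of all features did. The 95% confidence interval of the double mutant against WT change ran from -0.37 to 0.40 for *mylpfa* and from -0.59 to 0.57 for *pvalb2*. *acta1b* was again the exception, with a log2 change of -1.45 ± 0.87, an adjusted p of 0.565 and no overlap, in a direction that 9.32% of features shared. These comparisons share genotypes with those above and are not independent of them.

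The difference between the effect of Zbtb24 loss with and without Mda5 was tested as an interaction. It was above 0 for all 8 genes, from 0.56 for *tnnt3a* to 1.71 for *acta1b*, with a median of 0.90 beside 0.037 over all features. Its size and, for *ckma* and *tnnt3a*, its direction depended on the scaling. The median of the 8 genes was 0.25 after quantile normalization, beside 0.013 over all features. It was 0.25 after rescaling without the 4 most abundant features and the 9 genes, beside -0.52 over all features. That sum takes in the feature listed at 595886 FPKM in WT replicate 2 alone. The median was 0.45 after rescaling over features never listed at 0, beside -0.36 over all features. None of the 9 passed an adjusted p of 0.05, nor did any of the 21623 features (0.0%), whose lowest adjusted p was 0.0943. At an unadjusted p under 0.05, 6 of 9 genes (*ckma*, *ckmb*, *mylpfa*, *tpma*, *pvalb1* and *pvalb2*) had a positive interaction, against 13.3% of all features. *mylpfa* had an interaction of 0.92 ± 0.24 (SE) on the log2 scale with an adjusted p of 0.102, *tpma* of 0.89 ± 0.26 (adjusted p = 0.104) and *ckmb* of 0.74 ± 0.22 (adjusted p = 0.104). *pvalb1*, at 1.22 ± 0.41, and *pvalb2*, at 1.21 ± 0.37, had the widest intervals of these 6. *mylpfa*, *tpma* and *pvalb2* were lower in every *zbtb24* mutant than in every WT library and higher in every double mutant than in every *mda5* mutant library, as were 1.57% of all features. Without WT replicate 2, 3 genes passed the interaction: *ckmb*, *mylpfa* and *tpma*, with adjusted p-values of 0.0343, 0.0325 and 0.0444, and so did 9.99% of all features, of which 712 were higher and 1449 lower.

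The direction of these changes depended on how libraries were scaled against each other. With the deposited scaling, the median log2 change of all features was near 0 in every comparison. Quantile normalization put 6 of the 8 genes on the other side of 0 in *zbtb24* mutants against WT, between 0.06 for *pvalb1* and 0.26 for *ckma*, and left *acta1b* at -2.78 and *tnnt3a* at -0.20. It gives equal ranks the same value in every library, and these 6 genes held ranks between 7 and 46 throughout. A change shared by the most abundant features therefore cannot show after it. When libraries were brought to the same sum over the 24640 features never listed at 0, other than the 4 most abundant and the 9 genes, the median of all features in *zbtb24* mutants against WT moved to 0.24. Under that scaling *ckma* stood at 0.25 and *ckmb* at 0.05, and the other 6 stayed below 0, with *acta1b* at -2.69 (adjusted p = 0.0468). In double mutants against *mda5* mutants, 7 genes stayed above 0 and *acta1b* below 0 under each of the 5 scalings. Relative to the median of all features, the median of the 8 genes in *zbtb24* mutants against WT was -0.51 as deposited, -0.47 and -0.43 after the rescalings, and 0.08 after quantile normalization.

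**Figure D3:**
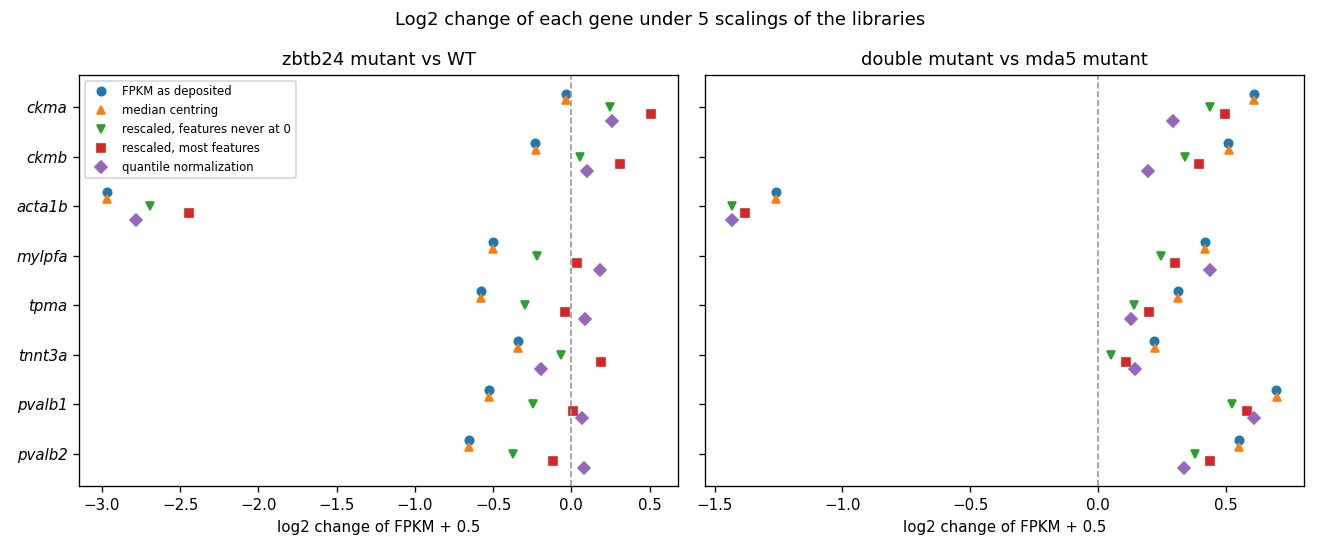
Log2 change of FPKM + 0.5 (horizontal axes) of 8 genes under 5 scalings of the libraries, for *zbtb24* mutants against WT and for double mutants against *mda5* mutants; each marker is 1 scaling. In the first panel 7 genes have markers on both sides of 0, and *acta1b* stays between -2.97 and -2.44.

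Ratios of 2 genes within a library, 4 of them of paralogs, do not change when each library is multiplied by a single factor. Quantile normalization is not such a scaling and can change them. The ratios were taken from the deposited values and were examined after the values had been seen. The ratio of *ckmb* to *ckma* was 1.2, 1.12 and 1.1 in WT, 1.22, 1.13 and 1.06 in *mda5* mutants, 0.991, 1.06 and 0.937 in *zbtb24* mutants, and 1.06, 1.04 and 1.08 in double mutants. It was lower in every *zbtb24* mutant than in every WT library (log2 difference -0.20), and it overlapped between double and *mda5* mutants (log2 difference -0.10). The ratio of *pvalb2* to *pvalb1* was between 1.02 and 1.23 in the 6 libraries without Zbtb24 and between 1.2 and 1.31 in the other 6, and the ratio of *mylpfa* to *tpma* was between 1.38 and 1.58 and between 1.32 and 1.53, respectively. In the exact permutation test of 3 against 3 libraries, two-sided, the smallest p possible is 0.1; 25 such tests over 5 ratios gave adjusted p-values of 0.227 or more.

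The parvalbumins that are less abundant stood further apart. *pvalb4*, which lies near *pvalb1* in the GRCz12tu assembly with 1 gene between them, was at 1398, 1429 and 1893 FPKM in WT, at 903, 940 and 1140 FPKM in *mda5* mutants, at 927, 870 and 385 FPKM in *zbtb24* mutants, and at 978, 1173 and 929 FPKM in double mutants. Its ratio to *pvalb1* was between 0.0376 and 0.0445 in the 6 libraries without Zbtb24 and between 0.0599 and 0.0746 in the other 6. *pvalb3*, which lies next to *pvalb2* with 1 microRNA gene between them, was at 279, 467 and 545 FPKM in WT, at 194, 148 and 253 FPKM in *mda5* mutants, at 95.1, 80.1 and 23.8 FPKM in *zbtb24* mutants, and at 93.0, 176 and 102 FPKM in double mutants. Its ratio to *pvalb2* was between 0.00204 and 0.00497 without Zbtb24 and between 0.00788 and 0.0186 with it. These 2 ratios did not overlap between the 6 libraries with and the 6 without Zbtb24, whereas that of *pvalb2* to *pvalb1* did. How often other ratios separate these libraries was not counted. The *pvalb3* to *pvalb2* ratio also averaged lower in *mda5* mutants, at 0.0103, than in WT, at 0.015, with overlap between them. In the fit across all features, *pvalb3* fell in *zbtb24* mutants against WT, with a log2 change of -2.86 ± 0.48 (SE) and an adjusted p of 0.0113, and *pvalb4* fell by 1.2 on the log2 scale (adjusted p = 0.0314). In double mutants against *mda5* mutants *pvalb3* stood at -0.70 (adjusted p = 0.57) and *pvalb4* at 0.05 (adjusted p = 0.969).

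**Figure D4:**
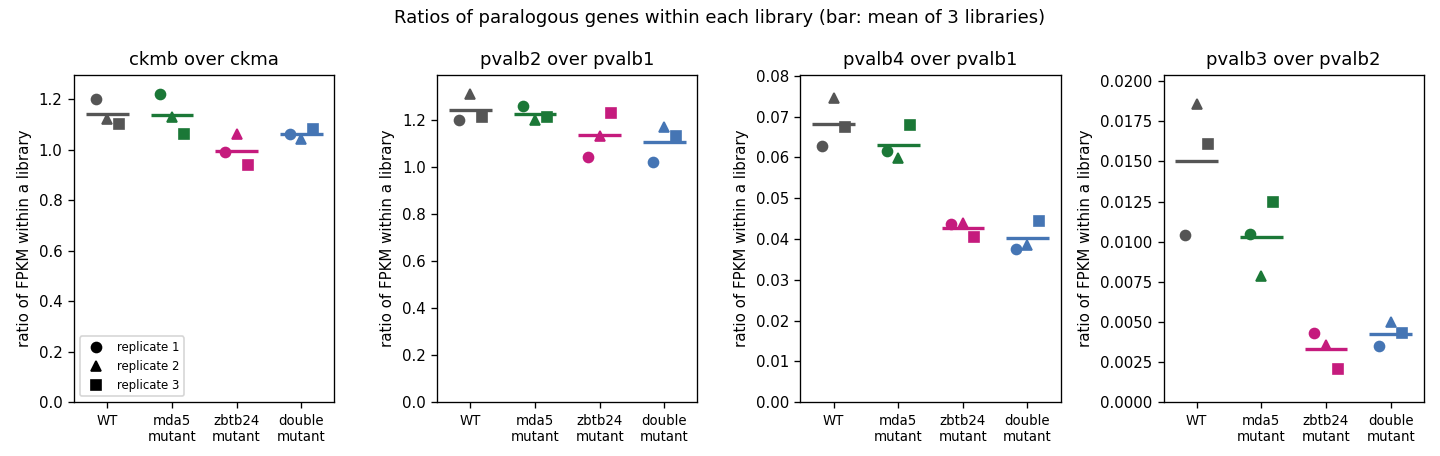
Ratio of the FPKM of paralogous genes within each library (vertical axes, from 0) by genotype; marker shape gives the replicate number and bars the mean of 3 libraries. The *pvalb4* to *pvalb1* ratio is at or below 0.0445 in the 6 libraries without Zbtb24 and at or above 0.0599 in the other 6, and the *pvalb3* to *pvalb2* ratio separates them in the same way.

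A list of 42 symbols drawn up for fast muscle was also looked up, of which 26 were found, for 27 identifiers and 23 tested genes. Whether each is particular to fast fibres was not tested, and *tnnc1a* (log2 change -0.55 in *zbtb24* mutants against WT) and *mb* (-0.73) are among them. In *zbtb24* mutants against WT, 0 of 23 rose and 4 fell, where 6.65% of all features fell: *pvalb3*, *pvalb4*, *cav3*, the muscle caveolin of the sarcolemma, and *mybpc2b*, a fast myosin-binding protein C of the thick filament. *cav3* averaged 82.66 ± 13.39 FPKM across WT libraries, against 42.45 ± 16.45 FPKM in *zbtb24* mutants and 73.33 ± 10.51 FPKM in double mutants (SD, n = 3 each; log2 change of *zbtb24* mutants against WT -1.03, adjusted p = 0.0383 in limma). *mybpc2b* averaged 76.04 ± 19.25 FPKM across WT libraries, against 37.92 ± 6.508 FPKM in *zbtb24* mutants and 47.76 ± 12.63 FPKM in double mutants (log2 change of *zbtb24* mutants against WT -0.98, adjusted p = 0.0249 in limma). The 4 calls depended on scaling, although all 4 log2 changes stayed below 0. After quantile normalization *cav3* did not pass. After rescaling without the 4 most abundant features and the genes described above, only *pvalb3* and *RYR3* passed, beside 37.4% of all features. *RYR3*, at 0.18 with the deposited scaling (adjusted p = 0.413 in limma), also passed with the 4 after rescaling over features never listed at 0. With the deposited scaling, the median of the 23 was -0.54, close to that of the 8 genes above, and 20 of 23 were below 0. The fast troponin C *TNNC2* stood at -0.62 (adjusted p = 0.0842) and the *MYL1* essential light chain feature at 7165 FPKM in WT stood at -0.54 (adjusted p = 0.253). The glycolytic genes *GAPDH* and *ENO3* stood at -0.13 and -0.28, and the calcium pump gene *atp2a1* stood at 0.08. The pump feature *atp2a1l*, more abundant at 3248 FPKM in WT against 826.5 FPKM for *atp2a1*, stood at -0.30 (adjusted p = 0.221). The other *MYL1* feature, at 740.2 FPKM in WT, stood at -1.06 (adjusted p = 0.108). None of them passed in limma. No gene of the list passed in the other 5 comparisons; the list's median was 0.30 in double mutants against *mda5* mutants and -0.38 in *mda5* mutants against WT. These counts moved with single libraries, as did those over all features, of which 1.13% passed without WT replicate 3 and 4.71% without WT replicate 1: 0 of the 23 passed without WT replicate 3, 1 without WT replicate 1, 2 without *zbtb24* mutant replicate 2, and between 3 and 5 without any other library.

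Fast myosin heavy chains could not be measured in these values. *myhz1.1*, *myhz1.2*, *myhz1.3* and *myhz2* were listed at 0 in all 12 libraries, and *myhc4* was listed at 34.7 FPKM in *mda5* mutant replicate 1, 10.46 FPKM in *zbtb24* mutant replicate 3, and 25.5 and 15.0 FPKM in double mutant replicates 1 and 3, and at 0 in the other 8. These genes lie in 1 cluster in the GRCz12tu assembly and are closely similar copies, so a value of 0 is not read as absence of the transcript. *myhc4* is among the 23 genes tested.

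Genes of slow fibres and of muscle differentiation were compared with the fast genes. In *zbtb24* mutants against WT, 6.65% of all features passed as lower. Of 6 slow muscle genes, *TNNT1* (slow troponin T) and *MYBPC1* (slow myosin-binding protein C) did so. Their log2 changes were -0.97 (adjusted p = 0.0129) and -0.70 (adjusted p = 0.0216) in limma. The slow myosin heavy chain *smyhc1* stood at -0.25 (adjusted p = 0.368). Of 6 regulators, *MYOG* fell by 1.18 on the log2 scale (adjusted p = 0.019), *MYOD1* fell by 0.70 (adjusted p = 0.0244) and *mstnb*, a myostatin gene that restrains muscle growth, fell by 1.09 (adjusted p = 0.028). *MYOG* and *MYOD1* are transcription factors that drive muscle differentiation. *MYF5* stood at -0.91 (adjusted p = 0.0841), while *MYF6* stood at 0.14 and *MEF2D* at 0.22, and neither passed. Which genes passed depended on scaling. After quantile normalization the slow muscle gene *myl13* and *MEF2D* also passed. With the deposited scaling they stood above 0, at 0.05 and 0.22, unlike the genes that passed as lower. After rescaling without the 4 most abundant features and the genes described above, only *MYOG* and *MEF2D* passed, beside 37.4% of all features. After rescaling over features never listed at 0, *TNNT1*, *MYOG*, *MEF2D* and *mstnb* passed. With the deposited scaling, none of the 12 genes passed in double mutants against *mda5* mutants. With that scaling and all 12 libraries, the interaction passed for none of them, so their response was not shown to differ with and without Mda5. Without WT replicate 2 the interaction passed for *myl13*, *MYBPC1* and *MYOD1*, and for 9.99% of all features. No slow muscle gene passed in *zbtb24* mutants against WT without WT replicate 3, and no regulator passed without WT replicate 1 or without WT replicate 3, where the share of all features called had also dropped, to the values given above.

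**Figure D5:**
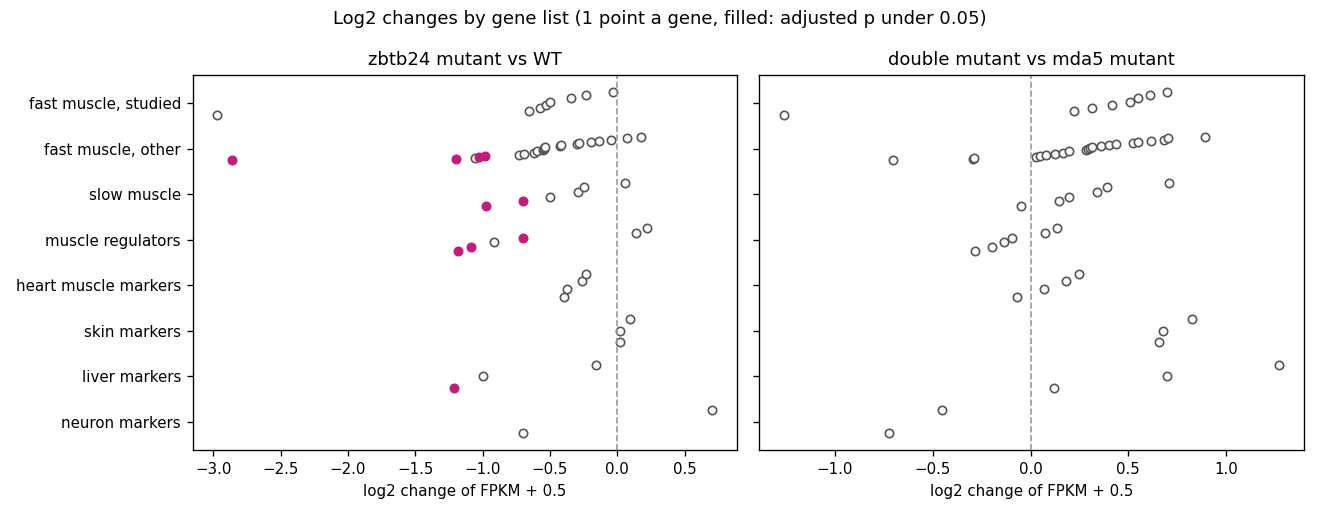
Log2 change of FPKM + 0.5 (horizontal axes) by gene list, for *zbtb24* mutants against WT and for double mutants against *mda5* mutants; each point is 1 gene, filled where its adjusted p was under 0.05, and *actc1b* and *myhc4* are not drawn. In the first panel 4 other fast muscle genes, 2 slow muscle genes, 3 regulators and 1 liver gene are filled, all below 0, and the second panel has no filled point. Of all features, 6.65% passed as lower in the first comparison and 0.134% passed in the second.

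Markers of other tissues were set beside the muscle genes. Of 4 heart muscle, 3 skin, 3 liver and 2 neuron markers tested, only the liver fibrinogen gene *FGB* passed in *zbtb24* mutants against WT. Of all features, 11.6% passed there in either direction and 6.65% passed as lower. *FGB* had a log2 change of -1.21 (adjusted p = 0.0171 in limma). Summed heart markers ran from 53.78 to 85.09 FPKM in WT and from 45.91 to 64.98 FPKM in *zbtb24* mutants, and summed skin markers from 5953 to 8039 FPKM and from 5904 to 8128 FPKM. Summed liver markers ran from 2821 to 4378 FPKM in WT and from 1689 to 3131 FPKM in *zbtb24* mutants, and all 3 liver markers had log2 changes below 0, with a median of -1.0. No marker listed was at 0 in every library. The fast muscle genes of the list, which do not include the 9, summed to values from 28680 to 38280 FPKM in WT, from 21940 to 25250 FPKM in *mda5* mutants, from 15870 to 28160 FPKM in *zbtb24* mutants and from 28900 to 37970 FPKM in double mutants. The part of tissue make-up in the muscle values was not tested.

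The 6 abundant genes varied together from library to library. Pearson's r of log2 values over the 12 libraries, which share genotype and scaling, ran from 0.549 to 0.975 over the 15 pairs of *ckma*, *ckmb*, *mylpfa*, *tpma*, *pvalb1* and *pvalb2*, and from 0.585 to 0.978 after the genotype means had been removed. *acta1b* correlated with them at between -0.152 and 0.702, and *tnnt3a* at between 0.3 and 0.578. After the genotype means had been removed, these ranges were 0.339 to 0.852 for *acta1b* and 0.146 to 0.639 for *tnnt3a*. The features most like the mean profile of the 8 genes over 12 libraries were *ARPC5*, a subunit of the actin-nucleating Arp2/3 complex (r = 0.988), the second *TNNT3* feature (r = 0.983), *TNNC2* (r = 0.979) and the enolase gene *ENO1* (r = 0.977). This profile leaves out *actc1b* and was computed after the values had been seen. It averages log2 values that were centred but not scaled, so genes with a wide range weigh most. *acta1b* ranged 69.05-fold over the libraries, and the others ranged between 1.751-fold and 3.196-fold. With *actc1b* included, its 9 values of 0 set the profile, and the most similar features were *dre-let-7b* (r = 0.93) and *ggt5a* (r = 0.861).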

How the data were processed

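Total RNA was isolated with Trizol from pools of 10 larvae, and stranded mRNA libraries were sequenced as paired ends. The authors trimmed reads with Trimmomatic 0.33, mapped them with TopHat 2.1.1 to GRCz10 using a supplied annotation, and quantified genes with Cuffquant of Cufflinks 2.2.1. The deposited values are FPKM, which the authors normalized between libraries with Cuffnorm; 0 columns of sample values were left unused. Counts, depth and gene lengths are not part of these values. The paper states an average number of paired reads per sample, but the number for each library is unknown. Precision therefore rests on the 3 libraries of a genotype, and p-values measure the spread between pools.

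Gene symbols came from a gene table that covers 26418 of the 32271 identifiers. The mapping settings and annotation decide how near-identical copies share fragments. Features averaging at least 0.5 FPKM were tested as log2(FPKM + 0.5) with limma 3.58.1 in R 4.3.3 (4 genotype means, 12 libraries, 8 residual degrees of freedom, eBayes with trend). P-values were two-sided and Benjamini-Hochberg adjusted over the 21623 features within each of 6 comparisons, with a threshold of 0.05. The fit was tested on simulated data with known changes. All 9 genes are named by rule, together with the features whose profile over libraries was most like theirs; other genes came from lists of symbols. The genes and the lists were chosen with earlier results of these data known. *CDCA7*, the ratios of genes within a library and the profile without *actc1b* were added after the values had been seen. Replicate numbers come from sample titles and mark different pools, and they were not treated as pairs. Alternatives were other pseudocounts (0.1 and 1), other filters on low values, 4 scalings, a replicate block, eBayes without trend, fits of only the compared genotypes, and leaving out each library. Sequences and genome coordinates were not used here.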

Additional observations from a re-analysis of the deposited data

Results flagged for a closer look

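*pvalb2*, *tpma* and *mylpfa* moved one way in every *zbtb24* mutant library against WT and the other way in every double mutant library against *mda5* mutants. The interaction was 1.21 for *pvalb2*, 0.89 for *tpma* and 0.92 for *mylpfa* on the log2 scale, with adjusted p-values of 0.109, 0.104 and 0.102 in limma, so the difference did not pass its test. After quantile normalization it was 0.254 for *pvalb2*, 0.0414 for *tpma* and 0.254 for *mylpfa*, and after rescaling without the 4 most abundant features and the 9 genes it was 0.552, 0.236 and 0.267. Of all features, 1.57% (339) lay lower in *zbtb24* mutants and higher in double mutants with no overlap in either comparison. *zbtb24* mutant replicate 3 was the lowest library for each of these genes; without it the interaction was 0.89 for *pvalb2*, 0.70 for *tpma* and 0.75 for *mylpfa*.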

How the results depend on the processing

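The 8 genes other than *actc1b* gave 48 log2 changes, each recomputed without 1 of the 12 libraries and under 11 other settings, or 10 for the interaction, which needs all genotypes. Of 1096 recomputed values, 1035 kept their direction and their side of the threshold, 48 reversed direction and 13 came to pass. None passed in the main fit, so staying on that side says little about how firm a direction is. Apart from leaving out a library, every reversal came from quantile normalization or a rescaling. The depth of each library is unknown, so no counting error could be given. The number of the 9 genes called in *zbtb24* mutants against WT was 0, and it was 1 (*acta1b*) with pseudocounts of 0.1 and 1, with a minimum mean of 1 FPKM, with median centring and with both rescalings; without 1 library it ran from 0 to 2, with *acta1b* called without *zbtb24* mutant replicate 2 or 3, and *tpma* and *mylpfa* without WT replicate 2, where 16.1% of all features passed. For the interaction it ran from 0 to 3. With the replicate block the number called stayed 0 in every comparison, *acta1b* had an adjusted p of 0.0688, the fast muscle list genes called in *zbtb24* mutants against WT numbered 2, not 4, and of all features 675 were higher and 903 lower, not 1063 and 1439. Same-numbered libraries did not deviate together (r from -0.125 to 0.167). Fitting the compared genotypes alone left none of the 23 fast, 6 slow and 6 regulator genes called in *zbtb24* mutants against WT, where 1.02% of all features passed.

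Reversals were not tested for cause. Quantile normalization gave, in *zbtb24* mutants against WT, 0.26 for *ckma*, 0.10 for *ckmb*, 0.18 for *mylpfa*, 0.0872 for *tpma*, 0.0649 for *pvalb1* and 0.0835 for *pvalb2*; in *mda5* mutants against WT, 0.10 for *acta1b* and 0.20 for *tpma*; in double mutants, 0.33 for *tpma* and 0.28 for *pvalb2* against WT, -0.0932 for *ckma* against *zbtb24* mutants and -0.32 for *pvalb4* against *mda5* mutants. Rescaling without the 4 most abundant features and the 9 genes moved the median of all features to 0.45 in *zbtb24* mutants and 0.45 in *mda5* mutants against WT, 0.37 in double mutants against WT and -0.52 in the interaction; 1 feature listed at 595886 FPKM in WT replicate 2 alone enters that sum. It gave 0.51 for *ckma*, 0.31 for *ckmb*, 0.0361 for *mylpfa*, 0.19 for *tnnt3a* and 0.0121 for *pvalb1* in *zbtb24* mutants against WT. In *mda5* mutants against WT it gave 0.0795 for *ckma*, 0.0768 for *ckmb*, 0.36 for *acta1b*, 0.14 for *mylpfa*, 0.13 for *tpma*, 0.38 for *tnnt3a* and 0.0030 for *pvalb1*. In double mutants it gave 0.33 for *tpma* and 0.42 for *pvalb2* against WT, and -0.067 for *pvalb4* and -0.0324 for *MYOD1* against *mda5* mutants; in the interaction, -0.0107 for *ckma* and -0.0812 for *tnnt3a*. Rescaling over features never listed at 0, chosen after seeing the data, gave 0.25 for *ckma* and 0.0523 for *ckmb* in *zbtb24* mutants against WT, 0.16 for *acta1b* and 0.18 for *tnnt3a* in *mda5* mutants against WT, and, in double mutants, 0.0719 for *tpma* and 0.17 for *pvalb2* against WT and -0.0030 for *cav3*, -0.12 for *pvalb4*, -0.0217 for *MYBPC1* and -0.0846 for *MYOD1* against *mda5* mutants.

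Without 1 library, *ckma* ran from -0.13 to 0.11 in *zbtb24* mutants against WT. In *mda5* mutants against WT, *acta1b* ran from -0.35 to 0.025 and *tnnt3a* from -0.38 to 0.12. In double mutants against WT, *ckmb* ran from -0.0732 to 0.15, *mylpfa* from -0.0915 to 0.0799, *tnnt3a* from -0.11 to 0.38 and *pvalb2* from -0.18 to 0.12. In double mutants against *mda5* mutants, *tnnt3a* ran from -0.0611 to 0.54, *pvalb4* from -0.053 to 0.15 and *TNNT1* from -0.13 to 0.10.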

Other observations

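*myl13*, in the list of slow muscle genes, was at 297.7 ± 35.45 FPKM in WT, 238.1 ± 15.72 FPKM in *mda5* mutants, 309.3 ± 39.7 FPKM in *zbtb24* mutants and 391.5 ± 51.75 FPKM in double mutants (SD, n = 3 each). Its log2 change in double mutants against *mda5* mutants was 0.71, with an adjusted p of 0.11 in limma. After quantile normalization *myl13* passed in that comparison, as did 0.125% of all features. It also passed then in double mutants against WT, as did 0.449% of all features. *tpm3*, a tropomyosin gene in the same list, stood at -0.29 in *zbtb24* mutants against WT (adjusted p = 0.226) and at 0.39 in double mutants against *mda5* mutants (adjusted p = 0.366). The bone transcription factor gene *SP7* averaged 4.042 ± 0.6121 FPKM across WT libraries, against 1.816 ± 1.003 FPKM in *zbtb24* mutants, with a log2 change of -1.08 and an adjusted p of 0.0524. *cdca7b*, a paralog of *CDCA7*, averaged 2.263 ± 0.4321 FPKM across WT libraries, against 2.665 ± 0.7481 FPKM in *zbtb24* mutants, with an adjusted p of 0.519.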
